A study of Nothobranchius furzeri with 20 samples.

Results

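Muscle transcriptomes of young fish, with and without a swim tunnel, were compared in 10 RNA sequencing libraries. These were taken by their labels from the 20 of the series. All came from muscle of male turquoise killifish, Nothobranchius furzeri, of the strain MZM-04/10p, a wild-derived strain of a short-lived annual fish, at the age of 9 weeks. The label of 5 of them gave a swim tunnel as the perturbation, an apparatus that makes a fish hold its place in a flow of water, and the other 5 carried the label none. The remaining 10 libraries came from swim-tunnel fish of 27 weeks and took no part in the fits below unless stated. The labels stated neither the duration and speed of swimming nor the identity of the animals, and the sample codes of the groups ran in separate blocks. A batch that followed these codes and the swim tunnel cannot be told apart, and p-values measure the difference against the spread between these libraries only, which may be technical.

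Trunk muscle of fish is made largely of fast white fibres, which contract in bursts, with smaller zones of slow red fibres used in steady swimming. Repeated swimming is known in fish to act on energy metabolism, on capillaries and on fibre growth in muscle. RNA of whole muscle also holds transcripts of blood, vessels, nerves and connective tissue, and in such bulk samples fewer cells of a type and less RNA per cell cannot be told apart. The files identified genes by number only, and none of the 26739 identifiers was paired with a name, so markers of muscle or of other cell types could not be looked up and the labelled tissue was not checked. Changes are therefore described by their size, by the abundance of the transcript and by their consistency over libraries, and 4 genes are followed by identifier.

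Library totals lay between 24333849 and 38571967 gene counts, and their means were not shown to differ between the groups (p = 0.54 by two-sided exact permutation over 252 splits, with an adjusted p = 0.675 for the family of 5 library measures). At the depth of the smallest library, 19477 ± 535 genes (SD, n = 5) had a count in swim-tunnel fish and 19695 ± 300.1 (SD, n = 5) in unexercised fish (exact permutation p = 0.413, adjusted p = 0.675). Swim-tunnel library 1 had 20430 such genes against 19184 to 19295 in the other 4. Without it the mean was lower by 457 genes in swim-tunnel fish and the difference passed the test (exact permutation adjusted p = 0.0397). The groups were then barely apart, the lowest unexercised library having 19299 such genes, and depth was made equal by 1 random draw only. With at least 10 counts required, the groups overlapped without library 1, at 14550 to 14952 genes against 14518 to 15820. Leaving out each of the other 9 libraries alone gave exact permutation adjusted p between 0.423 and 0.960. With all libraries kept and at least 10 counts required, the exact permutation adjusted p was 0.843. The 50 most abundant genes took 59.6%, 61.4%, 60.8%, 53.7% and 56.9% of the counts in swim-tunnel libraries 1 to 5 and 58.7%, 56.0%, 56.5%, 50.5% and 55.2% in unexercised libraries 1 to 5. The groups overlapped in this share, and their means of 58.5% ± 3.17 and 55.4% ± 3.02 (SD, n = 5 each) were not shown to differ (exact permutation p = 0.159, adjusted p = 0.397).

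The groups did not overlap on the second principal component of the log2 CPM, that is, each count as a share of its library (CPM) after scaling for library size and composition. It held 22.2% of the variance. Swim-tunnel libraries 1 to 5 lay at 24.0, 41.5, 46.3, -0.61 and 10.8, and unexercised libraries 1 to 5 at -16.7, -23.7, -18.0, -28.9 and -34.7. Library 4 of the swim-tunnel fish was the nearest to the unexercised fish, followed by library 5. The difference of 48.8 in means passed the test (exact permutation p = 0.00794, the smallest that 252 splits allow, adjusted p = 0.0397). The first component, with 27.8% of the variance, did not follow the label (exact permutation p = 0.873, adjusted p = 0.873). Swim-tunnel library 1 stood at one end of it, at -73.7, and library 4 at the other, at 37.5.

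**Figure D1:**
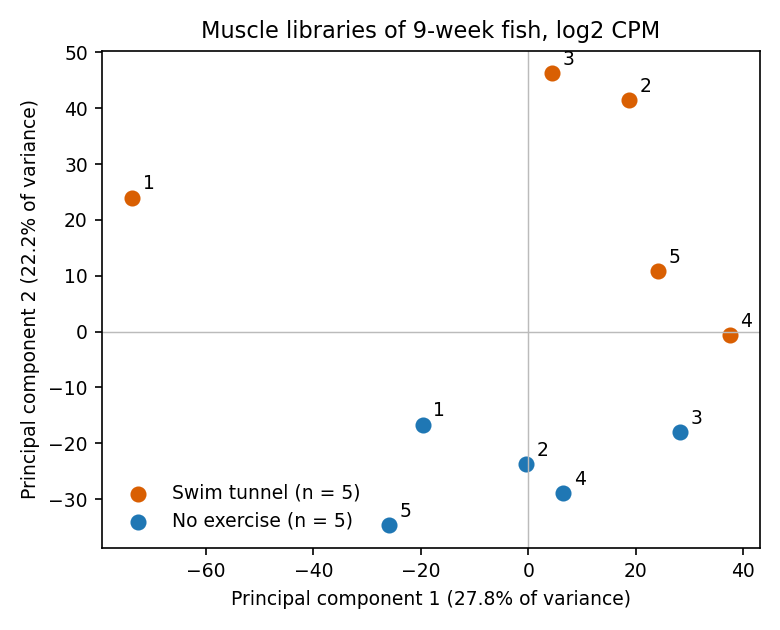
The 10 libraries on the first (x) and second (y) principal components of log2 CPM, in arbitrary units, numbered within each group. Swim-tunnel libraries (orange) lie at -0.61 or above on the second component and unexercised libraries (blue) at -16.7 or below.

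Swim-tunnel libraries were also more unlike each other than the unexercised ones. The mean Spearman correlation of a library with the other 4 of its group, taken over genes as a description, was 0.936 to 0.962 in swim-tunnel fish and 0.971 to 0.977 in unexercised fish. With the 5 libraries of the other group, the swim-tunnel libraries had mean correlations of 0.939 to 0.970. In log2 CPM the median gene had an SD of 0.30 between swim-tunnel libraries and of 0.26 between unexercised ones, and 63.0% of genes had the larger SD in swim-tunnel fish. This share depended most on swim-tunnel libraries 1 and 4. It was 55.7% without library 1 and 56.0% without library 4, against 62.0% to 62.4% without swim-tunnel library 2, 3 or 5. Without both libraries 1 and 4, a choice made after the data were seen, it was 46.8%. That value sets fewer swim-tunnel libraries against 5 unexercised ones, and an SD from fewer libraries tends to be smaller. Leaving out outlying libraries also lowers the spread of any group, so equal spread is not shown.

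In swim-tunnel fish, 95 genes were higher and 79 lower than in unexercised fish. These were 0.611% and 0.508% of the 15552 tested and 1.12% together. A gene was called at an adjusted p under 0.05 in the quasi-likelihood test of edgeR, with the 10 libraries fitted alone. Changes were mostly modest. Higher genes had a median log2 fold change of 0.87 and lower genes one of -1.04. At least a 2-fold change was met by 36 of the higher and 43 of the lower genes, and at least a 4-fold change by 2 and 4 of them. Below 1.5-fold lay 17 higher and 7 lower genes. The smallest called log2 changes were 0.38 and -0.52. Over all tested genes, the median log2 fold change was 0.03, the middle 50% lay between -0.19 and 0.25, and the median standard error was 0.19. An unadjusted p under 0.05 was found for 3102 genes, 19.9% of those tested.

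Called genes were more often of middle to high than of low abundance. Of the 174, 54 and 53 fell in the upper 2 of 5 abundance classes of equal size, 36 in the middle class and 23 and 8 in the lower 2. The higher genes had a median of 8.77 CPM over the 10 libraries and the lower genes of 11.7 CPM, against 5.14 CPM for all tested genes. Together the higher genes took up 0.180% ± 0.0140 of all counts with the swim tunnel and 0.0938% ± 0.00863 without (SD, n = 5 each). For the lower genes the share was 0.245% ± 0.0404 with and 0.5004% ± 0.0625 without. The genes were chosen for this difference, so these shares only describe its scale, which was well under 1% of the counts in either direction. Of the 111 genes at 1000 CPM or more, edgeR called 0, with 33 at an unadjusted p under 0.05. Over all tested genes edgeR called 1.12%, and 19.9% had an unadjusted p under 0.05. At that share few calls would come from 111 genes, so their absence is not shown to be particular to abundant genes. In the same 111 genes limma-voom also called 0, and DESeq2 called 1 higher and 5 lower. Over all 13467 genes that DESeq2 tested, it called 559 higher and 460 lower. Among the 50 most abundant genes, 27 had a positive fold change, 13 had an unadjusted p under 0.05, and the smallest edgeR adjusted p was 0.111.

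The directions were not spread alike over abundance. Over all 15552 tested genes, edgeR called 0.611% higher and 0.508% lower. Between 100 and 1000 CPM, 1 gene was called higher and 10 lower, of 635 tested. Between 1 and 10 CPM the balance was 55 higher and 29 lower, of 7725, and between 10 and 100 CPM it was 39 and 35, of 4568. Below 1 CPM edgeR called 0 higher and 5 lower genes, of 2513, with 226 genes of either direction at an unadjusted p under 0.05. DESeq2 called 4 higher and 7 lower there. Genes this scarce could pass the low-count filter through the group where they were higher alone, so these counts depend in part on the filter. Of the fold changes of all tested genes, 54.0% were positive below 1 CPM, 59.4% between 1 and 10 CPM, 46.4% between 10 and 100 CPM, 36.1% between 100 and 1000 CPM and 33.3% at 1000 CPM or more. Below 1 CPM this balance was opposite to that of the genes called by edgeR and by DESeq2. Between 10 and 100 CPM it was opposite to that of the edgeR calls only. DESeq2 called 218 higher and 240 lower genes there, and the 39 and 35 of edgeR were close to level. The 50 most abundant genes did not share the mostly negative sign, with 27 positive and a median log2 fold change of 0.06. In 5 classes of equal size by abundance, the median log2 fold change was 0.05, 0.11, 0.07, 0.01 and -0.06 from the lowest class to the highest. The sign in the highest class was negative with each of the other scalings and without each single library, with medians from -0.11 to -0.03. In the lowest class it turned to -0.06 without swim-tunnel library 1 and to -0.03 without unexercised library 3. No test was made of these balances, since genes are not independent replicates.

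The smallest change that was called differed between the classes. In the lowest class, up to 1.24 CPM, the median standard error was 0.35 log2 units and the smallest called change was 1.03. In the next class to the highest, from 7.86 to 20.8 CPM, these were 0.14 and 0.38, and in the highest class 0.14 and 0.52. The median size of a called log2 change was 1.85, 1.09, 0.92, 0.84 and 0.90 from the lowest class to the highest. The share of genes called was 0.257%, 0.74%, 1.16%, 1.74% and 1.70% from the lowest class to the highest.

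**Figure D2:**
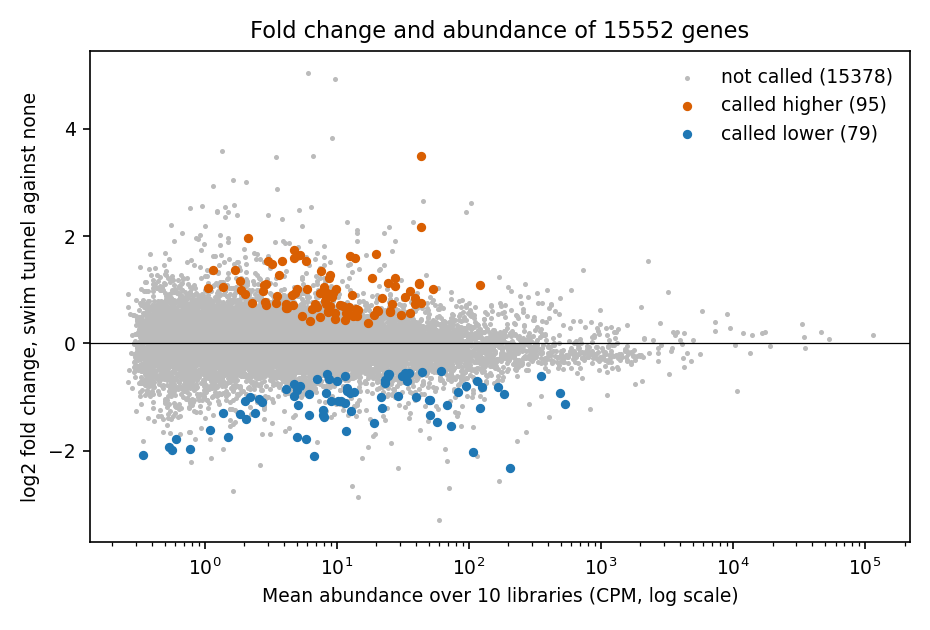
Log2 fold change, swim tunnel against none (y), by mean CPM over the 10 libraries (x, log scale), 1 point per tested gene. The 95 genes called higher (orange) and the 79 called lower (blue) lie mostly between 1 and 100 CPM, and large changes without a call (grey) are common among scarce genes.

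The 4 genes followed here were taken by a rule, in each direction the called gene of largest fold change and the called gene of largest difference in CPM. Their functions are not known from the files. The rule also asked for groups that overlapped by at most 1 library. The gene of largest fold change also needed at least 5 CPM in its higher group. Groups that did not overlap were thus favoured by the choice. Among the higher genes, Nfu_g_1_003551 (1869 bases) had the largest fold change. It stood at 130.1, 55.9, 156.4, 18.7 and 41.3 CPM in swim-tunnel libraries 1 to 5 and at 10.1, 5.30, 3.60, 9.70 and 6.85 CPM in unexercised libraries 1 to 5. All swim-tunnel libraries lay above all unexercised ones, but they differed among themselves by over 8-fold, with libraries 1 and 3 high and library 4 low. The log2 fold change was 3.50 (SE 0.58, edgeR adjusted p = 0.0333). The call ended without swim-tunnel library 2 or 3 and without unexercised library 2, 3, 4 or 5, each left out alone, with adjusted p between 0.0573 and 0.0931 and log2 fold changes between 3.09 and 3.63.

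Nfu_g_1_000594 (5085 bases) had the largest gain in CPM. It was at 167.5, 164.5, 232.2, 109.9 and 151.1 CPM in swim-tunnel libraries 1 to 5. In unexercised libraries 1 to 5 it was at 103.8, 81.8, 77.2, 64.3 and 63.0 CPM. The groups came close but did not overlap, with swim-tunnel library 4 the lowest of its group and unexercised library 1 the highest of the other. The log2 fold change was 1.08 (SE 0.20, edgeR adjusted p = 0.0352). The call ended without swim-tunnel library 2, 3 or 5 or unexercised library 2, 3, 4 or 5, with adjusted p between 0.0545 and 0.0982 and log2 fold changes between 0.89 and 1.11. Per kilobase of transcript, the mean levels of this gene and of Nfu_g_1_003551 over the 10 libraries were alike, at 23.9 and 23.4 CPM per kilobase.

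Nfu_g_1_021198 (2290 bases) had the largest decrease. It stood at 39.3, 82.4, 34.0, 74.0 and 115.6 CPM with the swim tunnel and at 146.8, 266.3, 307.3, 244.2 and 760.7 CPM without, in libraries 1 to 5 of each group. Unexercised library 5 was far above the other 4, and every swim-tunnel library was below the lowest unexercised one. The log2 fold change was -2.32 (SE 0.48) with an edgeR adjusted p of 0.0495, close to the threshold. The call held without unexercised library 1 (adjusted p = 0.0462) and ended without each of the other 9 libraries in turn, with adjusted p between 0.0543 and 0.114. Without unexercised library 5 the log2 fold change was -1.84. The call also ended with all 20 libraries in the fit (adjusted p = 0.063), without scaling beyond the column totals (0.07) and without a low-count filter (0.0756).

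Nfu_g_1_019537 (3072 bases) had the largest loss in CPM and was the most abundant called gene. Its values were 324.6, 379.4, 202.5, 426.0 and 353.7 CPM in swim-tunnel libraries 1 to 5 and 475.1, 702.2, 870.1, 661.4 and 976.8 CPM in unexercised libraries 1 to 5. The groups did not overlap, and swim-tunnel library 4 and unexercised library 1 were again the closest pair. The log2 fold change was -1.13 (SE 0.22, edgeR adjusted p = 0.0453). The call held without swim-tunnel library 4 (adjusted p = 0.0281) or unexercised library 1 and ended without each of the other 8, with adjusted p between 0.0618 and 0.11 and log2 fold changes between -1.20 and -1.03. With all 20 libraries in the fit the log2 fold change was -1.12 and the edgeR adjusted p 0.479. The error of that fit also draws on the 27-week libraries, in which this gene lay between 57.6 and 759.4 CPM. The call also ended without further scaling (adjusted p = 0.069) and without a low-count filter (0.0515). Per kilobase its mean level was 174.9 CPM, the highest of the 4 genes, followed by Nfu_g_1_021198 with 90.4.

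**Figure D3:**
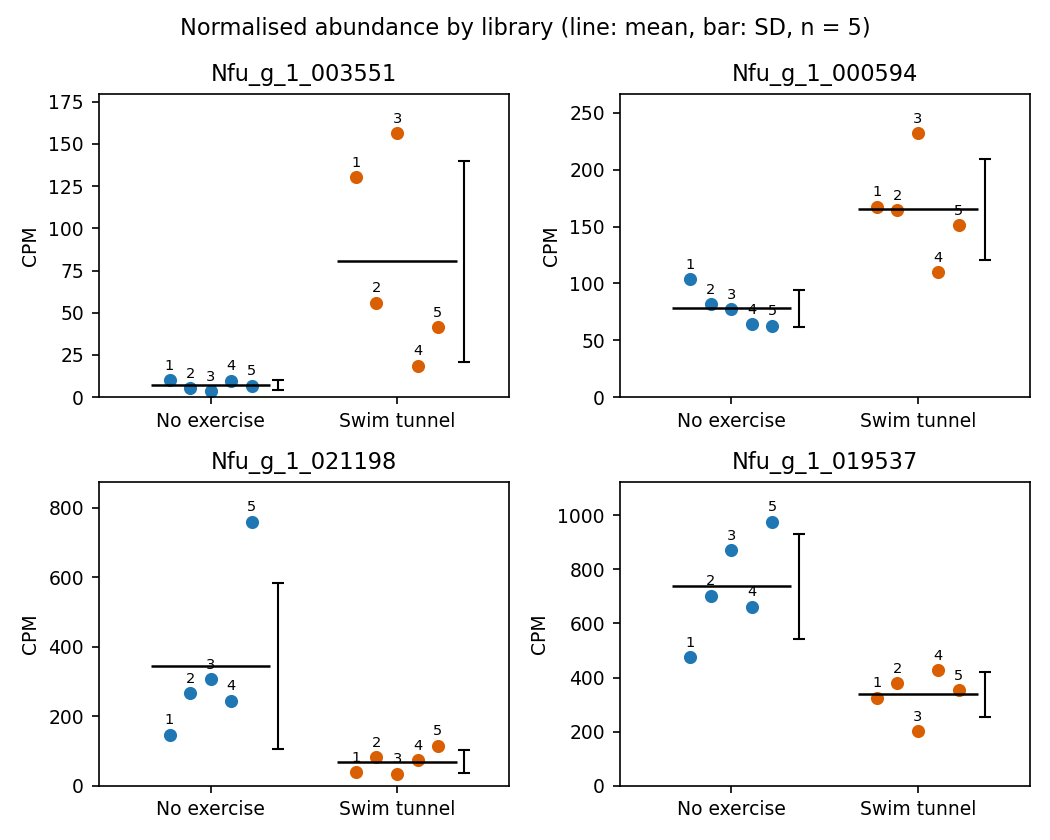
CPM of the 4 followed genes in each library (y, from 0), numbered within the groups; lines give group means and bars the SD, n = 5. In each panel the groups do not overlap, which the rule of choice favoured. Unexercised library 5 of Nfu_g_1_021198, at 760.7 CPM, stands far above the rest of its group.

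Consistency over libraries was high among called genes, as the test favours it. The groups did not overlap in CPM for 90 of the 95 higher and 77 of the 79 lower genes, and leaving out 1 library separated them for the other 5 and 2. Over all tested genes, groups that did not overlap were found for 472 genes higher and 377 lower with the swim tunnel, 3.03% and 2.42% of those tested and 5.46% together. Of these, 382 and 300 were not called, and their changes were smaller, with median log2 fold changes of 0.47 and -0.54 against 0.87 and -1.06 for the called ones. In none of the 95 higher genes did 1 library hold over 50% of the summed swim-tunnel CPM, and in none of the 79 lower genes did 1 library hold over 50% of the summed unexercised CPM. Over all tested genes, 1 library held such a share in 4.27% for the swim-tunnel and in 0.752% for the unexercised libraries, so the background gives few such genes in lists of this size.

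**Figure D4:**
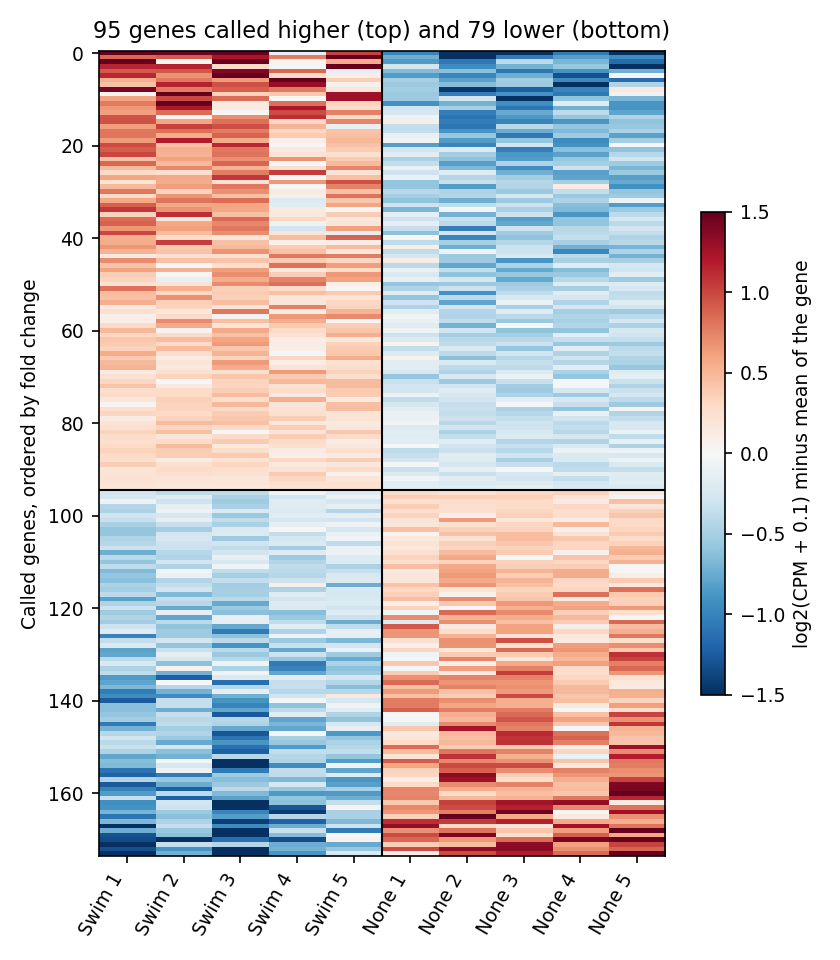
Each row is 1 of the 174 called genes, ordered by fold change, and each column 1 library; colour gives log2(CPM + 0.1) minus the mean of the gene. The 95 higher genes (top) and 79 lower genes (bottom) keep their sides in nearly all libraries, with paler columns for swim-tunnel library 4 and unexercised library 1.

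The libraries that came closest to the other group were not evenly shared among the called genes. Of the 174 genes, 57 had swim-tunnel library 4 as the swim-tunnel library nearest to the unexercised side, and 50 had library 5. The counts were 16, 33 and 18 for swim-tunnel libraries 1, 2 and 3. Among the unexercised libraries, library 1 was nearest to the swim-tunnel side for 72 genes, and the other 4 for 16 to 31 each. The same count was not made over all tested genes, so the unevenness is not shown to be particular to the called genes. Over all tested genes, these 3 libraries also lay least often on the side of their own group, as defined below. The shares were 47.3% and 50.9% for swim-tunnel libraries 4 and 5 and 52.3% for unexercised library 1.

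Most large fold changes were not called. A change of at least 2-fold was found in 271 genes in the higher and 218 in the lower direction, of which 36 and 43 were called. Of the 235 higher genes without a call, 51.5% had groups that overlapped by at least 2 libraries, and 89 drew over 50% of their swim-tunnel CPM from a single library. In 23 of them the groups did not overlap. Of the 175 lower genes without a call, 31.4% had groups that overlapped by at least 2 libraries, 27 drew over 50% of their unexercised CPM from 1 library, and in 33 the groups did not overlap. Over all 15552 tested genes, groups overlapped by at least 2 libraries in 11952, and did not overlap in 3.03% higher and 2.42% lower. The uncalled genes of 2-fold change thus overlapped less often than most genes, which a change of that size makes likely. Over all tested genes, 1 library held over 50% in 4.27% for swim-tunnel and 0.752% for unexercised libraries. At 4-fold or more, 38 higher genes were not called, and in 32 of them 1 library held over 50%. Library 2 had the highest swim-tunnel value in 23 of these 38. In the lower direction, 13 such genes were not called, and unexercised library 5 had the highest value in 11 of them. These genes were scarce or middling, with median abundances of 3.25 CPM for the 38 and 15.6 CPM for the 13.

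The number of called genes depended on single libraries. It rose from 174 to 605, 333 higher and 272 lower, without swim-tunnel library 4, and 173 of the 174 genes were among them. Without any other library it fell. It was 48 higher and 78 lower without swim-tunnel library 1, and in all 23, 20 and 91 without swim-tunnel libraries 2, 3 and 5 and 87, 6, 6, 29 and 18 without unexercised libraries 1 to 5, in turn. The balance turned to more lower than higher genes without swim-tunnel library 1, with 38.1% higher against 54.6% in the full fit, without swim-tunnel libraries 2, 3 and 5, and without unexercised libraries 4 and 5. Leaving out swim-tunnel libraries 1 and 4 together, a choice made after the data were seen, gave 130 calls, 62 of them among the 174. Fits with a library less have fewer samples, and at an unadjusted p under 0.05 they found between 2510 and 3610 genes.

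The signs of the 174 genes could hardly turn when 1 library was left out. Their groups overlapped by at most 1 library, and each fit shared its libraries with the fit that chose the genes. All 174 kept their sign in each of the 10 fits. The log2 fold change of a gene in these fits was between 0.772 and 1.198 times that of the full fit. These values are a description only, and were not set against all tested genes. A gene of the 174 was called in a median of 2 of the 10 fits. In 103 genes it was called in 1 or 2 fits, and 28 genes were called in 5 or more.

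Calls in all 10 fits were made for 6 genes, 3 higher and 3 lower. The number could not be larger, since the fits without unexercised library 2 or 3 called 6 genes each. These 6 genes are given without identifiers, and none of them is among the 4 genes above. The first of the higher genes stood between 55.5 and 102.9 CPM with the swim tunnel and between 8.82 and 19.7 CPM without. Its log2 fold change was 2.16 (SE 0.24, edgeR adjusted p = 0.00554). The next lay between 10.1 and 14.2 CPM with and between 4.28 and 6.15 CPM without, its log2 fold change being 1.28 (SE 0.14, edgeR adjusted p = 0.00554). The third lay between 51.2 and 62.3 CPM with and between 21.7 and 31.5 CPM without, its log2 fold change being 1.12 (SE 0.12, edgeR adjusted p = 0.00554). In each, the groups were apart and swim-tunnel libraries were close together, by less than 2-fold from lowest to highest. A call in every fit of these same libraries favours such genes, so this is a description only.

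Of the 3 lower genes, the one of largest decrease was at 1.498 to 3.45 CPM with the swim tunnel and at 8.41 to 13.3 CPM without (log2 fold change -2.10, edgeR adjusted p = 0.00554, SE 0.23). Another was at 1.73 to 3.44 CPM with and at 6.96 to 10.8 CPM without (log2 fold change -1.79, edgeR adjusted p = 0.00885, SE 0.21). The last was at 6.26 to 8.68 CPM with and at 14.2 to 24.6 CPM without (log2 fold change -1.26, edgeR adjusted p = 0.0147, SE 0.16). Over the 6 genes the highest adjusted p in any of the 10 fits was 0.0483.

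Each library was also placed by genes whose choice it had no part in. For this, the 100 genes of lowest p were taken from the fit without the library, and the library was said to lie on the side of its own group for a gene if its log2 CPM was nearer to the mean of its own group than to that of the other group, both taken without it. Unexercised libraries 1 to 5 lay on their own side in 69%, 94%, 87%, 76% and 87% of these genes. Swim-tunnel libraries 1, 2, 3 and 5 did so in 64%, 76%, 89% and 65%. Swim-tunnel library 4 did so in 41%, and in 244 of the 605 genes called without it, or 40.3%. Over all tested genes the same share was 50.9% to 63.8% for the other 9 libraries and 47.3% for swim-tunnel library 4. The 100 genes thus stood above the background of all genes in 9 libraries and below it in 1. For swim-tunnel library 1 the gap was small, at 64% against 60.9%, and for unexercised library 2 it was wide, at 94% against 63.8%. These gaps were not tested, since genes are not independent.

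Swim-tunnel library 4 lay between the group means in the median of these genes. Set to 0 at the mean of the unexercised libraries and to 1 at the mean of the other swim-tunnel libraries, its median position over the 605 genes was 0.366. Its median position over the 100 genes was 0.424. Swim-tunnel libraries 1, 2, 3 and 5, each placed by its own 100 genes, were at 0.773, 0.829, 1.01 and 0.655. Unexercised library 1, placed in the same way, was at 0.382, and the other 4 unexercised libraries were between -0.0017 and 0.216. The genes and group means differed with the library left out, and the swim-tunnel mean included library 4 whenever another library was placed. These positions are therefore not on a common scale. Library 4 also had the lowest share of counts in the 50 most abundant genes of its group and the lowest library weight in limma, at 0.542, followed by library 1 at 0.605. The other 3 swim-tunnel libraries had weights of 1.10 to 1.13 and the unexercised libraries of 0.84 to 1.71. The part of these measures in the number of calls was not tested.

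**Figure D5:**
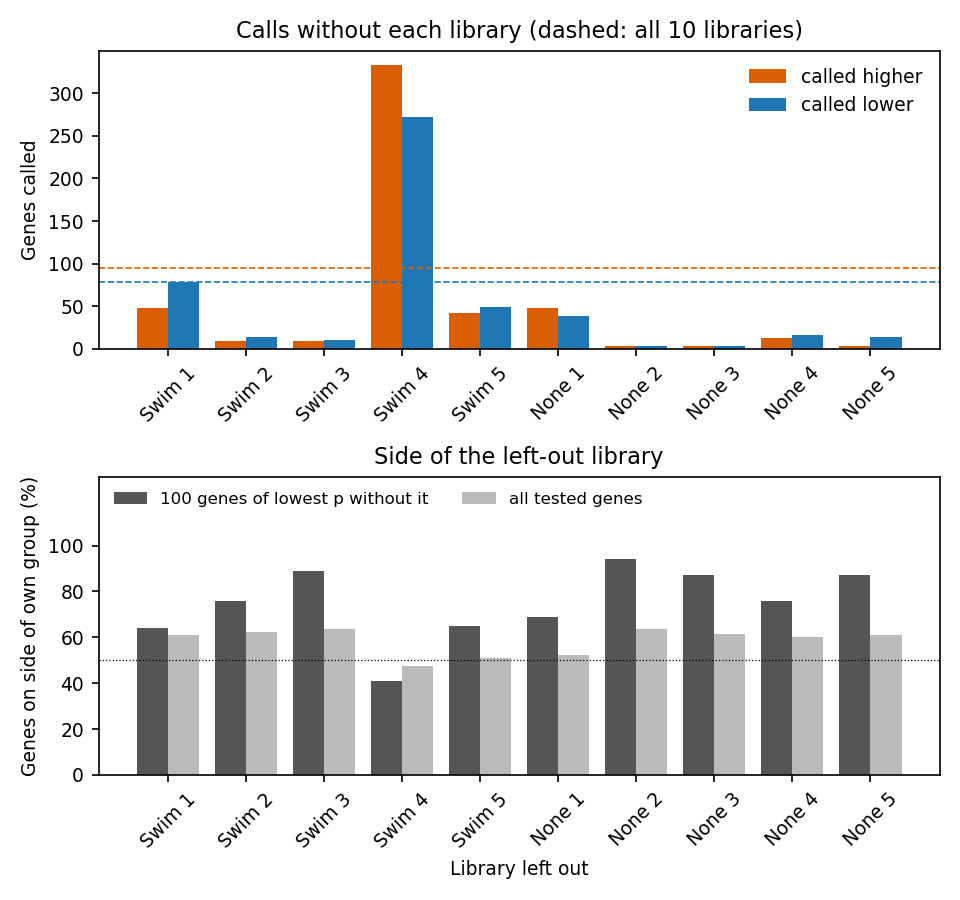
Top, genes called higher and lower (y, counts) when each library (x) is left out, with dashed lines at the 95 and 79 calls of the full fit. Bottom, percent of genes in which the left-out library lies on the side of its own group, for the 100 genes of lowest p without it (dark) and all tested genes (light); swim-tunnel library 4 is at 41% and 47.3%.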

How the data were processed

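A TruSeq kit was used to make libraries from total RNA of muscle, per the labels. Among the tools in the submitters' processing notes are featureCounts 1.4.6-p4, STAR 2.4.1d and bcl2fastq 1.8.4. Tool settings, genome build and strand use: not given in the sources used here. Reads shared by overlapping, antisense or near-identical genes cannot be separated. The authors deposited raw counts per gene, 26739 genes in 20 columns, and RPKM values. The deposited RPKM were not scaled by each column's own total. They served only to recover gene lengths, for 99.7% of tested genes: with library totals running on down the rows, the implied length of the median gene ranged over 0.00058 log2 units among libraries, against 0.91 with own totals.

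None of the identifiers (0 of 26739) matched the RefSeq table of assembly NfurGRZ-RIMD1, so gene lists and cell type markers were not used.

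Groups came from the labels; library numbers follow accession order and pair nothing. Counts of the 10 libraries were fitted with edgeR 4.0.16 (R 4.3.3): filterByExpr with a minimum count of 10 left 15552 genes, TMM scaling was applied to own column totals, and a robust quasi-likelihood fit had group as its only term (common dispersion 0.084). P-values were adjusted by Benjamini-Hochberg over all tested genes, with a threshold of 0.05. SE is the absolute log2 fold change over the square root of F. Log2 CPM used a prior count of 2. Per-library measures were compared by exact two-sided permutation. Replicates differed far beyond sampling noise (lowest chi-square per degree of freedom 29.6). The script was tested on simulated data. Alternatives used limma 3.58.1 (voom, with and without library weights) and DESeq2 1.42.0.

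Named genes were, in each direction, the called gene of largest fold change with at least 5 CPM in its higher group and the called gene of largest CPM difference, with groups overlapping in at most 1 library. The comparison, the rule and the lists were chosen with earlier results of these data known.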

Additional observations from a re-analysis of the deposited data

Results flagged for a closer look

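For 12 measures in each group of 5 libraries, 24 groups in all, the gap of the most extreme library to its neighbour was set against the range of the group. In 2 the gap was large by the criterion of Dixon, which chance meets in about 1 in 20 groups, or 1.2. That rate need not hold for the measures of called genes, which were picked for their differences between the groups. The CPM were also taken without logarithm. Swim-tunnel library 1 had 20430 genes with a count at equal depth, against 19184 to 19295 in the other 4. Unexercised library 5 had 760.7 CPM of Nfu_g_1_021198, against 146.8 to 307.3 CPM in the other 4.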

How the results depend on the processing

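Against 95 higher and 79 lower genes, edgeR called 26 and 28 with own column totals alone, 43 and 39 without a low-count filter, 18 and 12 with all 20 libraries in the fit and 3 and 2 at an adjusted p under 0.01. DESeq2 called 559 and 460, and limma-voom with library quality weights 217 and 199. A minimum count of 50 gave 273 in all, of which 132.0 were lower. Of the 174 genes, 169 were among the DESeq2 calls (97.1% of the 174 and 16.6% of the 1019), 171 among those of limma-voom with weights (98.3% and 41.1% of 416) and 26 among those of the 20-library fit (14.9% and 86.7% of 30). All 174 kept their sign in every one of these fits in which they were tested, which their choice from the same libraries made likely. Counts stayed within 1.5 times in both directions with relative log expression factors, upper-quartile factors, limma-voom, no robust estimates, without the 50 most abundant genes and without swim-tunnel libraries 1 and 4 together. Leaving out 1 library gave 3 to 333 higher and 3 to 272 lower calls, 411 to 926 higher and 426 to 717 lower genes whose groups did not overlap, a difference of 1.85 to 4.27 percentage points in the share of the 50 most abundant genes, and of -457 to -107 in detected genes. With a library less, groups are more easily apart. Counts of genes that did not overlap thus tend to rise from the 472 higher and 377 lower of the full fit. The cause of the other shifts was not tested. The 4 named genes kept their direction under all 22 alternatives, which the rule that chose them made likely. Their calls ended in 6, 7, 13 and 12 of the alternatives in the order of their description. The edgeR adjusted p reached 0.0931, 0.0982, 0.114 and 0.479. No paired analysis was possible because the labels carry no replicate number.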

Other observations

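In the 10 libraries of swim-tunnel fish of 27 weeks, which took no part in the comparison, the lowest, median and highest values, with counts scaled over all 20 libraries, were 7.34, 36.6 and 49.9 CPM for Nfu_g_1_003551, and 203.3, 305.7 and 329.7 CPM for Nfu_g_1_000594. For Nfu_g_1_021198 they were 162.0, 317.1 and 796.3 CPM. For Nfu_g_1_019537 they were 57.6, 317.5 and 759.4 CPM. Age and library differ here, and no comparison was made.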
